A study of Mus musculus with 12 samples.

Results

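Brca2-mutant and Trp53-mutant mouse cerebella that had formed no tumor were compared with each other by RNA sequencing, using 6 of the 12 samples of the series. The 6 samples were chosen by their labelled tissue, cerebellum, and by their labelled genotypes. They are mice GB361, GB508 and GB512, labelled Brca2-mut;Trp53-WT, and mice GB517, GB519 and GB520, labelled Brca2-WT;Trp53-mut. These groups are called the Brca2-mut and the Trp53-mut cerebella from here on. The other 6 samples are 3 medulloblastomas and the cerebellum next to each of them, all labelled Brca2-mut;Trp53-mut.

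In the Brca2-mut mice, floxed exons of Brca2 were deleted by Cre under the human GFAP promoter, the allele that the study names Brca2Δex3-4. The Cre line is FVB-Tg(GFAP-cre)25Mes/J, which acts in cells of the developing central nervous system and their descendants. A cell type that did not arise from them keeps its Brca2. In the Trp53-mut mice a neo cassette replaces exons of Trp53 in every cell (B6.129S2-Trp53tm1Tyj/J). Whether the Brca2-WT mice carried Cre is not given in the sources used here. The alleles came from crosses of mixed strain. The study calls the control cerebella adult, and their age in days is not given in the sources used here. Each group differs from the other at Trp53 as well as at Brca2, so the effects of the 2 loci cannot be told apart in this comparison. Each sample is 1 mouse.

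BRCA2 acts in the repair of DNA breaks by homologous recombination and protects stalled replication forks. p53 is a transcription factor that halts the cell cycle or starts apoptosis after DNA damage. The adult cerebellum is made up mostly of granule neurons, with Purkinje cells as its output neurons. The choroid plexus of the fourth ventricle, an epithelium that secretes cerebrospinal fluid, adheres to its underside. In bulk tissue, fewer cells of a type and less RNA per cell cannot be told apart.

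The values are TPM, the share of each gene among a library's transcripts after correction for transcript length, as the authors computed it. Fold changes are differences of mean log2(TPM + 1), Brca2-mut minus Trp53-mut, so they understate the change of genes near 0 TPM. A limma test was run on the 15575 genes that reached 1 TPM in 3 or more of the 6 samples. Called genes are those at an adjusted p below 0.01 whose log2 fold change was 1 or more, up or down. Between 15123 and 15661 genes reached 1 TPM in each of the 6 libraries, and no read depth can be taken from TPM. The short gene Mir6236 took between 6.29% and 11.5% of the TPM of each. Libraries correlated across genes with r between 0.978 and 0.979 within the Brca2-mut group, between 0.983 and 0.985 within the Trp53-mut group, and between 0.973 and 0.976 across groups. Granule neuron and Purkinje cell markers were abundant in all 6, as the tissue label says. Xist was at most 0.185 TPM and Ddx3y at least 36.3 TPM in all 6, and the 2 groups overlapped in both genes. Of 4 sex-linked genes tested, 2 lay lower in the Brca2-mut group without overlap, Eif2s3y and Kdm5d. Eif2s3y was at most 66.3 TPM there and at least 68.1 TPM in the Trp53-mut group. Kdm5d was at most 19.2 TPM against at least 19.5 TPM. The median log2 fold change of the 4 was -0.20, and none passed at an adjusted p under 0.05.

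The targeted genes were examined first. Brca2 was at 3.79, 3.396 and 3.51 TPM in the Brca2-mut cerebella and at 3.24, 4.40 and 3.72 TPM in the Trp53-mut cerebella. The groups overlapped (log2 fold change -0.06, limma adjusted p = 0.836). Trp53 was at 34.2, 33.1 and 37.2 TPM in the libraries labelled Trp53-WT and at 47.1, 49.2 and 49.4 TPM in the libraries labelled Trp53-mut. All 3 libraries labelled mutant lay above the others (log2 fold change -0.47, standard error 0.07, limma adjusted p = 0.0497). A gene-level TPM also counts transcripts without the deleted exons, so neither gene checks a genotype label here.

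Of the 15575 genes, 2 were called higher in the Brca2-mut cerebella (0.0128%) and 7 were called lower (0.0449%). The 2 higher genes were the protamine gene Prm1 and the ubiquitin pseudogene Gm1821. The 7 lower genes were Mfrp, Calml4, Lbp, Prr32 and Wdr86 and the microRNA loci Mir6922 and Mir7655. Of these, Mfrp, Prr32, Mir6922 and Mir7655 reached 1 TPM in the Trp53-mut cerebella alone. They entered the test only through the group where they are high, so the filter admitted them in this direction only. With no filter on low TPM, 1 gene was called lower. At an adjusted p under 0.05 with no fold minimum, 6 genes were higher (0.0385%) and 65 lower (0.417%). This split depended on the scaling: 34 were higher and 61 lower after median-of-ratios scaling, and 38 higher and 64 lower after quantile normalization. Prm1 and Gm1821 were called under all 18 other settings and Mfrp under 16 of them. The remaining 6 were called under 2 to 9 settings.

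Both called microRNA loci have 2 mature arms, shown with the seed, bases 2 to 8, in capitals so that their targets can be looked up. The sequences are those of RefSeq on GRCm38.p6. The 4 seeds differ from each other.
mmu-miR-6922-5p: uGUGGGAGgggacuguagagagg
mmu-miR-6922-3p: uGUUCUGCucacccuucucacag
mmu-miR-7655-5p: cGGCCCACggagcuccuaaaga
mmu-miR-7655-3p: uUUAUGACgcuccgugggccug

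Mir6922 lies on chromosome 11 from 60202262 to 60202327, on the minus strand inside Srebf1, the gene of a sterol-regulated transcription factor. It was at 0 TPM in all 3 Brca2-mut cerebella and at 9.64, 5.24 and 4.49 TPM in the Trp53-mut cerebella (log2 fold change -2.84, limma adjusted p = 0.00898). Srebf1 itself overlapped between the groups, at 40.03, 36.7 and 41.4 against 41.2, 39.5 and 34.2 TPM. Mir7655 lies on chromosome 2 from 18057846 to 18057903, on the plus strand inside Mllt10. It was at 0 TPM in the 3 Brca2-mut cerebella and at 9.93, 5.28 and 14.0 TPM in the others (log2 fold change -3.34, limma adjusted p = 0.00898). Mllt10 was at 26.6, 20.8 and 24.2 TPM against 28.7, 27.9 and 30.7 TPM, which did not pass the test (limma adjusted p = 0.199). Poly(A) selection does not capture mature microRNAs, and a TPM over such a short locus rests on reads of the transcript around it. These values are therefore uncertain and say nothing of the mature arms.

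Prm1 (Entrez Gene 19118, chromosome 16 from 10796332 to 10796823) encodes protamine, which packs sperm DNA. It was at 252, 201 and 302 TPM in the Brca2-mut cerebella and at 1.64, 2.30 and 2.06 TPM in the Trp53-mut cerebella, a ratio of means of 126. On the log2 scale this was a difference of 6.38, with a standard error of 0.16 (limma adjusted p = 6.3e-06). The other Brca2-mut libraries of the series had the same high level, at 286, 149 and 181 TPM in the adjacent cerebella and at 324, 243 and 132 TPM in the tumors. All 9 libraries labelled Brca2-mut thus exceeded all 3 labelled Brca2-WT. Other spermatid genes did not share this level. Prm2 and Tnp1 were at 0 TPM in all 6 cerebella, and Prm3 and Tnp2 were at most 0.796 TPM. These 4 genes were chosen after the values of Prm1 were seen. Pieces of mouse Prm1 serve as polyadenylation cassettes in some transgenes. The 3′ end of the Cre construct is not given in the sources used here, and whether the reads came from it was not tested.

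Gm1821 (Entrez Gene 218963, chromosome 14 from 46084027 to 46084957) is a pseudogene of ubiquitin. It was at 914, 928 and 900.4 TPM in the Brca2-mut cerebella and at 212, 209 and 257 TPM in the Trp53-mut cerebella, a ratio of 4.05 (log2 fold change 2.02, standard error 0.09, limma adjusted p = 0.000183). Unlike Prm1, it was not high in the adjacent cerebella, also labelled Brca2-mut, at 200, 235 and 195 TPM. Near-identical ubiquitin genes could share its reads, so its level is uncertain. Of those, Ubb was at 2125, 1990 and 1970 TPM against 2544, 2510 and 2198 TPM. Ubb did not pass the test (limma adjusted p = 0.159) and was chosen after the values of Gm1821 were seen.

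**Figure D1:**
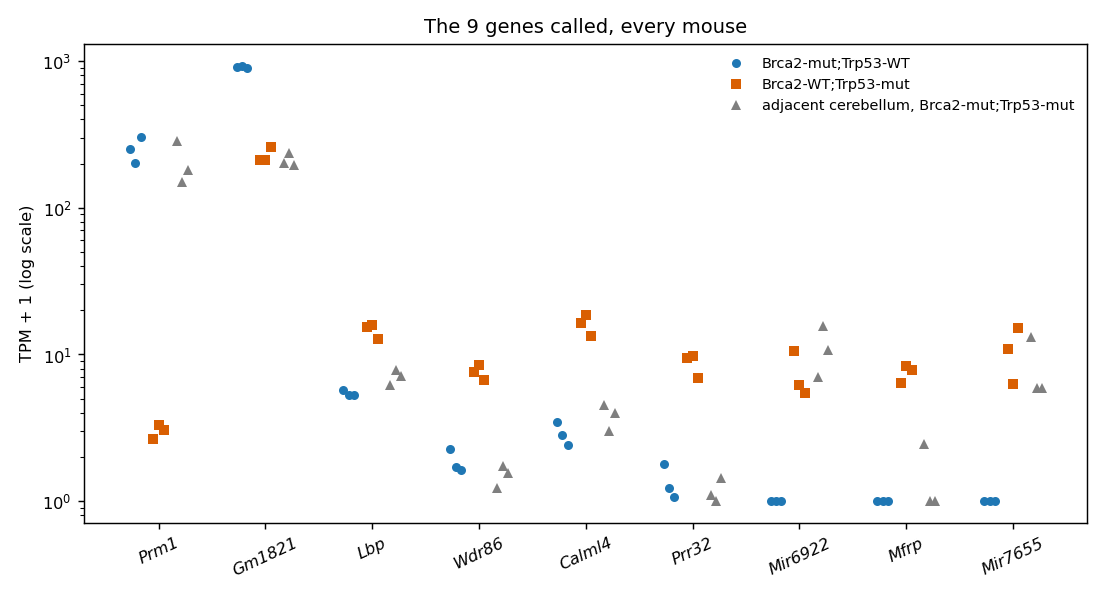
TPM + 1 on a log axis of the 9 called genes, ordered by log2 fold change, with 1 point per mouse for the Brca2-mut;Trp53-WT (circles), Brca2-WT;Trp53-mut (squares) and adjacent (triangles) cerebella. Prm1 is high in both groups labelled Brca2-mut, Gm1821 in the tumor-free one alone, and Mir6922 and Mir7655 are at 0 TPM in the 3 circles.

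Of the lists examined, choroid plexus epithelium had the most genes lower at an adjusted p under 0.05, and Calml4 and Lbp belong to it. Mfrp, Prr32 and Wdr86 are not on that list. Mfrp (Entrez Gene 259172, chromosome 9 from 44101770 to 44109187) encodes a membrane protein with a frizzled-like domain. It was at most 0.000265 TPM in the Brca2-mut cerebella and at 5.44, 7.32 and 6.80 TPM in the Trp53-mut cerebella (log2 fold change -2.90, standard error 0.15, limma adjusted p = 0.000502). Calml4, a calmodulin-like protein, was at 2.46, 1.81 and 1.41 TPM against 15.3, 17.4 and 12.3 TPM, a ratio of 7.94 (log2 fold change -2.47, standard error 0.18, limma adjusted p = 0.00513). Lbp, which binds bacterial lipopolysaccharide, was at 4.74, 4.30 and 4.27 TPM against 14.5, 14.9 and 11.7 TPM, a ratio of 3.09 (log2 fold change -1.43, limma adjusted p = 0.00898). In each of these genes every Brca2-mut value lay below every Trp53-mut value.

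Prr32, on chromosome X, was at 0.797, 0.239 and 0.0738 TPM in the Brca2-mut cerebella and at 8.46, 8.76 and 5.90 TPM in the others (limma adjusted p = 0.00898). Wdr86, on chromosome 5, was at 1.27, 0.714 and 0.619 TPM against 6.56, 7.47 and 5.67 TPM (limma adjusted p = 0.00898). In both, the highest Brca2-mut value was that of GB361.

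The 250 bases upstream of Mfrp and Prr32 are shown because both were called lower and their annotated starts match the promoter table. Capitals mark the core bound by OTX homeodomain factors, TAATCC, or its reverse complement GGATTA. The strand given is that of the gene.
Mfrp upstream, GRCm38.p6, chr9:44101520-44101769, plus strand: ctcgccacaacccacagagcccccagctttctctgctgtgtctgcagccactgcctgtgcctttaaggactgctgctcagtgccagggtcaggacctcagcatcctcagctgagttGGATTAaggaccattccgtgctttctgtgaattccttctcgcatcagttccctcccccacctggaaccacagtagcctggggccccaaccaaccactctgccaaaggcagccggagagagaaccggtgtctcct
Prr32 upstream, GRCm38.p6, chrX:45090654-45090903, plus strand: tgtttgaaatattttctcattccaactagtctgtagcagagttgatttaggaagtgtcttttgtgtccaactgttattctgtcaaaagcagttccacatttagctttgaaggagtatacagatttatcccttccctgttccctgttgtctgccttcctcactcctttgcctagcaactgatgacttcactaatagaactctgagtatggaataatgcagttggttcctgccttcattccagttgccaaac

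Mfrp held 1 copy of the core and Prr32 none. The 250 bases upstream of Calml4 and Wdr86, which were also called lower, held none. Of all 32851 RefSeq promoters, 6.25% held it within 250 bases. Of 23 choroid plexus genes with a promoter in the table, 2 held it, Abca4 and Otx2. The forkhead core GTAAACA, in either direction, was in 3.17% of all promoters and in 1 of the 23, Prlr. Such matches are descriptions of sequence and not of binding.

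Of 30 genes listed as choroid plexus epithelium, all 30 were tested, and in all 30 the 3 Brca2-mut values lay below the 3 Trp53-mut values. Over all genes tested, 20.3% did so and 6.70% did the reverse. The median log2 fold change of the list was -2.21, beside -0.07 over all genes. Calml4 and Lbp were called, and 18 of the 30 passed at an adjusted p under 0.05. The summed TPM of the 30 genes was 1362, 252 and 227 in the Brca2-mut cerebella and 5366, 6778 and 5234 in the Trp53-mut cerebella. GB361 therefore stood at 23.5% of the Trp53-mut mean, and GB508 and GB512 at 4.36% and 3.92%. GB361 had the highest Brca2-mut value in 27 of the 30 genes. Without GB361, 18 of the 30 were called and 25 passed at 0.05, and the median was -2.59. Without GB508, none was called and 1 passed at 0.05, without GB512 none and 7, and without any one of the Trp53-mut mice none was called and 1 or 2 passed.

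Among transport genes of the epithelium, the widest difference was in Ttr, which carries thyroid hormone and retinol-binding protein into cerebrospinal fluid. Ttr was at 842, 9.60 and 11.8 TPM against 3957, 5039 and 3849 TPM. Its log2 fold change of -6.45 had a standard error of 1.505, because GB361 lay between the groups, and it did not pass the test (limma adjusted p = 0.0939). The folate receptor Folr1 was at 5.18, 0.380 and 0.625 TPM against 30.0, 32.7 and 26.8 TPM (log2 fold change -3.68, limma adjusted p = 0.0388). The water channel Aqp1 was at 1.94, 0.328 and 0.328 TPM against 10.9, 11.8 and 8.66 TPM (limma adjusted p = 0.0279). The bicarbonate transporter Slc4a5 was at 2.44, 0.671 and 1.04 TPM against 11.2, 12.2 and 9.60 TPM (limma adjusted p = 0.0215). The potassium channel Kcnj13 was at 4.58, 1.56 and 1.49 TPM against 14.3, 21.5 and 18.6 TPM (limma adjusted p = 0.0324). In each of these, GB361 was the highest of the Brca2-mut mice and still below every Trp53-mut mouse.

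Secreted factors and junction proteins had the same order. Klotho, Kl, a membrane and secreted protein of calcium and phosphate balance, was at 10.7, 2.11 and 2.75 TPM against 38.3, 50.3 and 39.9 TPM (log2 fold change -3.08, limma adjusted p = 0.0472). Sostdc1, an antagonist of BMP and WNT signaling, was at 3.64, 0.183 and 0.211 TPM against 18.3, 24.98 and 19.5 TPM (limma adjusted p = 0.0401). Enpp2, which makes lysophosphatidic acid, was at 298, 96.9 and 80.7 TPM against 861, 1118 and 879 TPM and just missed the looser threshold (limma adjusted p = 0.0540). The tight junction genes Cldn1 and Cldn2 passed at 0.05, at log2 fold changes of -1.79 and -2.23, as did the epithelial keratins Krt8 and Krt18, at -1.35 and -2.21. Igf2, which meningeal cells also express, was at 63.2, 63.6 and 51.9 TPM against 105, 101 and 86.8 TPM (log2 fold change -0.70, limma adjusted p = 0.0472). Otx2, a homeodomain factor of the choroid plexus that unipolar brush cells also express, differed less, at 13.4, 11.5 and 14.4 TPM against 19.4, 19.7 and 17.3 TPM (log2 fold change -0.49, limma adjusted p = 0.0898). Igf2 and Otx2 are among the few in which GB361 did not stand out.

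**Figure D2:**
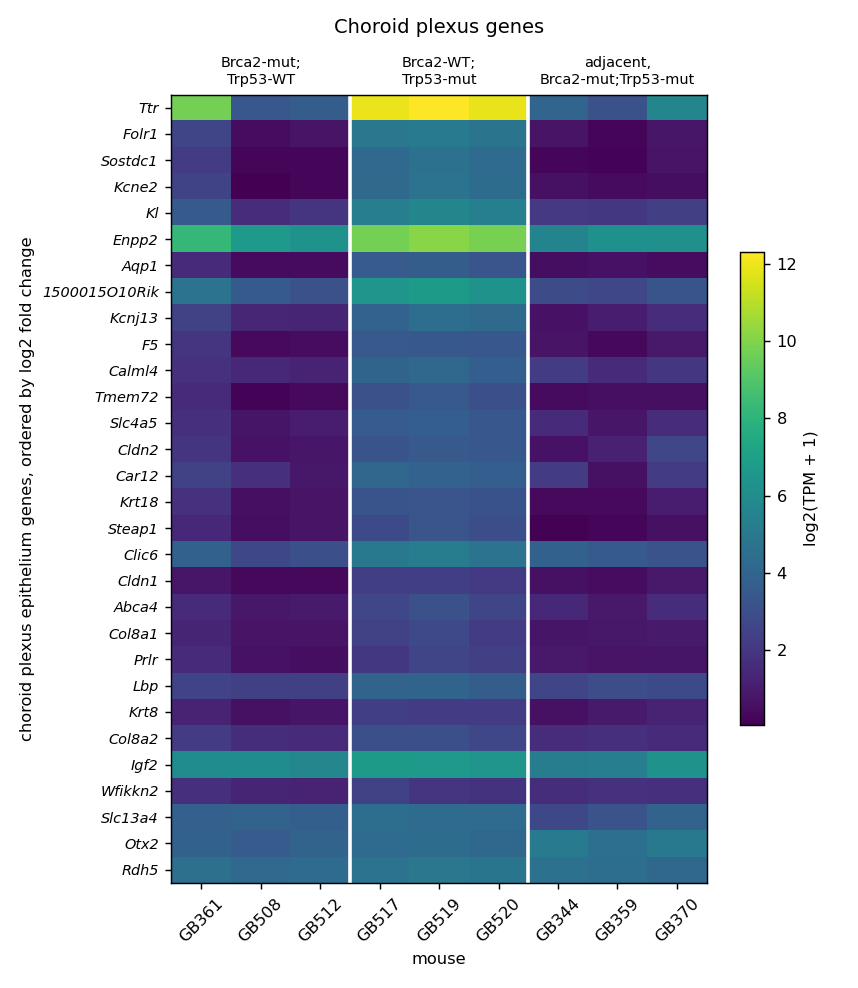
Heat map of log2(TPM + 1) of the 30 choroid plexus epithelium genes, ordered by log2 fold change, in 9 cerebella. The 3 Brca2-WT;Trp53-mut columns are the brightest in nearly every row, apart from Otx2, GB361 is intermediate for most genes, and the other Brca2-mut columns are the darkest for most genes.

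Outside that list, 47 genes were lower at an adjusted p under 0.05, among them 6 microRNA or snoRNA loci. Several of them, named here after their values were seen, are also known in choroid plexus. Ace, the angiotensin-converting enzyme, was at 10.9, 8.08 and 7.19 TPM against 31.3, 29.4 and 23.2 TPM (limma adjusted p = 0.0215). The serotonin receptor Htr2c was at 3.53, 1.55 and 1.59 TPM against 9.81, 13.6 and 10.6 TPM (limma adjusted p = 0.0311). The cation channel Trpv4 was at 1.98, 0.870 and 1.24 TPM against 7.16, 9.67 and 6.65 TPM (limma adjusted p = 0.0215). All 3 genes had GB361 as the highest of the Brca2-mut mice.

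Markers of tissue around the choroid plexus moved less. Of 14 ependymal genes, the lining cells of the ventricles, 5 had all Brca2-mut values below and 1 above, with a median of -0.33. The share below was 35.7%, beside 20.3% of all genes, and it was 35.7% beside 13.3% after median-of-ratios scaling. Mia alone passed at 0.05, at 5.804, 9.51 and 7.26 TPM against 18.3, 16.3 and 16.5 TPM (log2 fold change -1.10, limma adjusted p = 0.0472). Foxj1, the master regulator of motile cilia, was at 12.7, 9.15 and 11.3 TPM against 9.66, 9.77 and 8.68 TPM. Meningeal fibroblast genes had a median of 0.00, with 2 of 14 above and 1 below. Hemoglobin and other red blood cell genes summed to 1648, 1385 and 1283 TPM against 2002, 1547 and 1376 TPM, with overlap. How much choroid plexus each dissection took is not given in the sources used here, and its part in these values was not tested.

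Purkinje cell genes lay higher in the Brca2-mut cerebella. All 20 had a log2 fold change above 0, with a median of 0.43, and in 15 all Brca2-mut values lay above all Trp53-mut values, beside 6.70% of all genes. None was called or passed at 0.05. After median-of-ratios scaling 17 of 20 lay above, beside 13.7% of all genes, and 2 passed at 0.05. With quantile normalization or a minimum of 5 TPM 4 passed, and with array weights 6. None passed with a pseudocount of 0.1 or 0.01, with no filter on low TPM, without a variance trend or with all 12 samples in the fit. With GB361, GB508 or any one of the Trp53-mut mice left out none passed either, and with GB512 left out 2 passed. The summed TPM of the list was 14413, 13756 and 12155 against 10063, 9687 and 9081, a ratio of 1.40. Pcp2, a regulator of G-protein signaling in Purkinje cells, was at 3020, 2757 and 2585 TPM against 2025, 1942 and 1721 TPM (log2 fold change 0.56, standard error 0.09, limma adjusted p = 0.0600). Car8, which binds the inositol trisphosphate receptor, was at 1067, 872 and 780 TPM against 587, 544 and 622 TPM (log2 fold change 0.62, limma adjusted p = 0.0710). Its partner Itpr1 was at 1587, 1479 and 1262 TPM against 1044, 988 and 959 TPM (limma adjusted p = 0.0647). The calcium buffer Calb1 was at 1142, 998 and 890 TPM against 700.5, 727 and 720 TPM (limma adjusted p = 0.0710). Shh, the mitogen that Purkinje cells supply to granule cell progenitors, was at 13.0, 8.63 and 7.34 TPM against 5.94, 6.48 and 7.24 TPM (limma adjusted p = 0.240).

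When the 401 microRNA and other small RNA genes were left out of the fit, a choice made after seeing the data, 10 of the 20 Purkinje genes passed at 0.05 with the same fold changes. That fit called 2 genes higher and 32 lower, 15 of them choroid plexus genes. In Rora, Lhx1, Lhx5, Plcb4 and Gad2, the other 5 of the list, the groups overlapped. Of these, Plcb4 and Gad2 are also expressed by other cerebellar neurons.

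Granule neuron genes lay slightly lower. All 18 had a log2 fold change below 0, with a median of -0.22, and in 11 the Brca2-mut values lay below the others, beside 20.3% of all genes. After median-of-ratios scaling these were 7 of 18, beside 13.3%. None passed at 0.05. The summed TPM was 6559, 5430 and 6030 against 7213, 6745 and 6779, a ratio of 0.869. Grin2c, the NMDA receptor subunit of mature granule neurons, was at 205, 156 and 203 TPM against 279, 261 and 225 TPM (log2 fold change -0.45, limma adjusted p = 0.128). Cbln1, which granule neurons secrete to organize their synapses with Purkinje cells, was at 799, 733 and 813 TPM against 953, 863 and 880.1 TPM (limma adjusted p = 0.176). Gabra6, their GABA-A receptor subunit, overlapped between the groups. The list of granule cell progenitors, the proliferating cells of early postnatal life, had a median of -0.04, and its genes split evenly, with 8 above 0 and 8 below. Among them Ptch1 was at 220, 184 and 197 TPM against 197, 200.1 and 199 TPM.

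Interneuron and unipolar brush cell lists had medians of 0.00 and 0.02. Within the interneuron list, 3 of 12 genes lay above without overlap, 25% beside 6.70% of all genes, and 1 below, 8.33% beside 20.3%. Those above were Pvalb, a calcium buffer that Purkinje cells share, Slc32a1, the vesicular GABA transporter, and Npy, a neuropeptide. Npy was at 60.1, 50.3 and 44.1 TPM against 31.8, 29.7 and 36.4 TPM (log2 fold change 0.64, limma adjusted p = 0.0794).

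**Figure D3:**
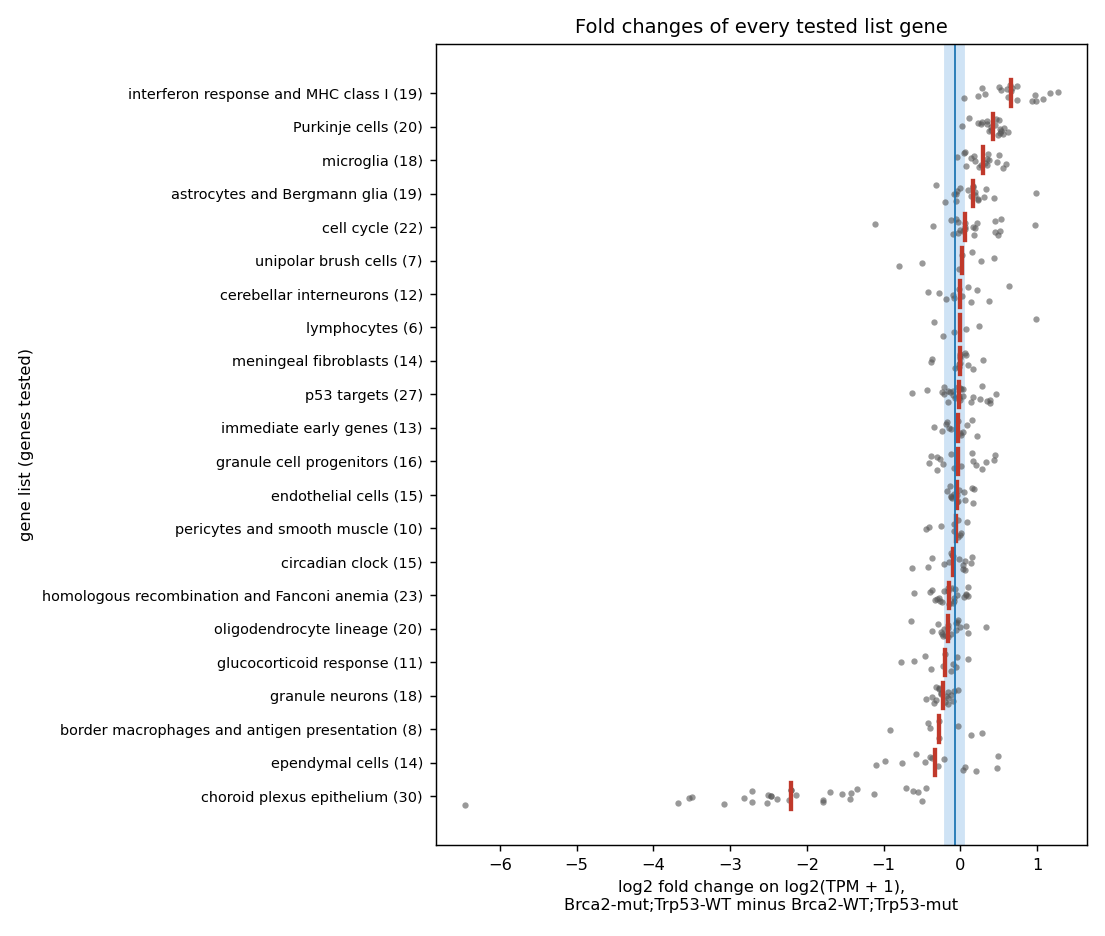
Log2 fold change of every tested gene of the lists with at least 6 tested genes (gray points), with the list median (red bar), the median of all 15575 genes (blue line) and their interquartile range (blue band). The choroid plexus median of -2.21 stands far to the left, and the interferon, Purkinje and microglia medians of 0.66, 0.43 and 0.29 are the highest.

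No astrocyte or oligodendrocyte gene on the lists passed at 0.05. Astrocyte and Bergmann glia genes had a median of 0.16, with 7 of 19 above and 1 below. That is 36.8% above beside 6.70% of all genes, and 47.4% beside 13.7% after median-of-ratios scaling. Fabp7, a fatty acid binding protein of radial and Bergmann glia, was at 147, 87.6 and 152 TPM against 46.9, 63.4 and 83.0 TPM (log2 fold change 0.99, limma adjusted p = 0.113). Clu, a secreted chaperone, lay on the other side, at 584, 542 and 558 TPM against 674, 725 and 708 TPM (log2 fold change -0.32, limma adjusted p = 0.0692). Oligodendrocyte genes had a median of -0.16, and Mbp, the main myelin protein gene, was at 2982, 2479 and 1938 TPM against 2723, 2632 and 2789 TPM. Endothelial genes had a median of -0.05, with 0 above and 1 below of 15, and pericyte and smooth muscle genes one of -0.06.

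Of the 6 genes higher at an adjusted p under 0.05, Slc25a18, a mitochondrial glutamate carrier, was at 128, 123 and 127 TPM against 77.3, 80.6 and 93.3 TPM (log2 fold change 0.59, limma adjusted p = 0.0360). Glipr2 was at 10.4, 10.5 and 10.5 TPM against 5.03, 5.48 and 6.52 TPM (limma adjusted p = 0.0472). The histone gene Hist1h2bn was at 4.90, 7.13 and 5.41 TPM against 2.28, 2.08 and 2.31 TPM (limma adjusted p = 0.0425). These 3 were named after their values were seen. Th, the rate-limiting enzyme of catecholamine synthesis, was at 17.0, 17.7 and 22.9 TPM against 8.64, 8.63 and 5.45 TPM (log2 fold change 1.25, standard error 0.19, limma adjusted p = 0.0497). Th stands on a list of hindbrain genes outside the cerebellum, of which 3 of 22 were tested. The others were Hoxb3 and Hoxb4, at log2 fold changes of -0.30 and -0.41, and neither passed.

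One Brca2-mut library, GB512, stood apart from the other 5. Small RNA genes were left out of this count by name or annotated type. In GB512, 56 genes lay more than 2-fold above all 5 other libraries, against 0 to 6 in each of the others. The 6 of GB508 still include the noncoding RNA genes Rpph1 and Rmrp. The chemokine Cxcl10 was at 18.7 TPM in GB512 and at most 3.11 TPM elsewhere. Usp18, which removes the ubiquitin-like protein ISG15, was at 16.3 TPM in GB512 and at 3.53 and 2.03 TPM in the other Brca2-mut mice. Rrm2, the ribonucleotide reductase subunit of dividing cells, was at 12.8 TPM in GB512 and at most 2.78 TPM elsewhere. The histone gene Hist1h2ao was at 73.4 TPM and at most 20.4 TPM elsewhere. The noncoding RNA Hotairm1, transcribed from the HoxA cluster, was at 33.6 TPM and at most 7.11 TPM elsewhere, and Fndc1 at 9.64 TPM and at most 1.67 TPM elsewhere. These genes are among the 10 with the widest difference in GB512. The summed TPM of the hindbrain list was also highest there, at 38.4 beside 20.9 and 21.7 in the other Brca2-mut mice.

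Interferon response and MHC class I genes had a median log2 fold change of 0.66, and all 19 lay above 0. None passed at 0.05. In 4 of the 19, or 21.1%, the Brca2-mut values lay above without overlap, beside 6.70% of all genes. After median-of-ratios scaling these were 10, or 52.6%, beside 13.7%. The summed TPM was 830, 684 and 1272 in the Brca2-mut cerebella and 665, 615 and 594 in the others. Without GB512 the median was 0.27. B2m, the light chain of MHC class I, was at 302, 222 and 357 TPM against 197, 182 and 188 TPM (log2 fold change 0.61, standard error 0.15, limma adjusted p = 0.111). H2-D1, a heavy chain, was at 273, 285 and 326 TPM against 271, 234 and 222 TPM. Ifit3, an interferon-induced antiviral protein, was at 21.8, 24.0 and 74.9 TPM against 17.6, 17.2 and 17.4 TPM, with GB512 far above the rest.

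Microglia genes had a median of 0.29, with 4 of 18 above, 22.2% beside 6.70% of all genes, and none below. After median-of-ratios scaling 7 lay above, 38.9% beside 13.7%. Without GB512 the median was 0.14. Their sum was 362, 299 and 516 TPM against 295, 295 and 295 TPM. The complement gene C1qa was at 50.4, 38.5 and 82.9 TPM against 41.9, 31.3 and 34.7 TPM, while Tmem119, a marker of resident microglia, was at 9.33, 8.25 and 11.1 TPM against 8.05, 7.38 and 6.38 TPM. MHC class II genes lay the other way. H2-Aa was at 3.71, 5.10 and 3.10 TPM against 9.79, 6.92 and 8.30 TPM (log2 fold change -0.92, limma adjusted p = 0.0794), and Cd74, the invariant chain, at 9.85, 6.53 and 8.81 TPM against 13.4, 10.6 and 10.5 TPM (limma adjusted p = 0.216). The 18 lymphocyte genes were mostly below 1 TPM, and 6 were tested.

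**Figure D4:**
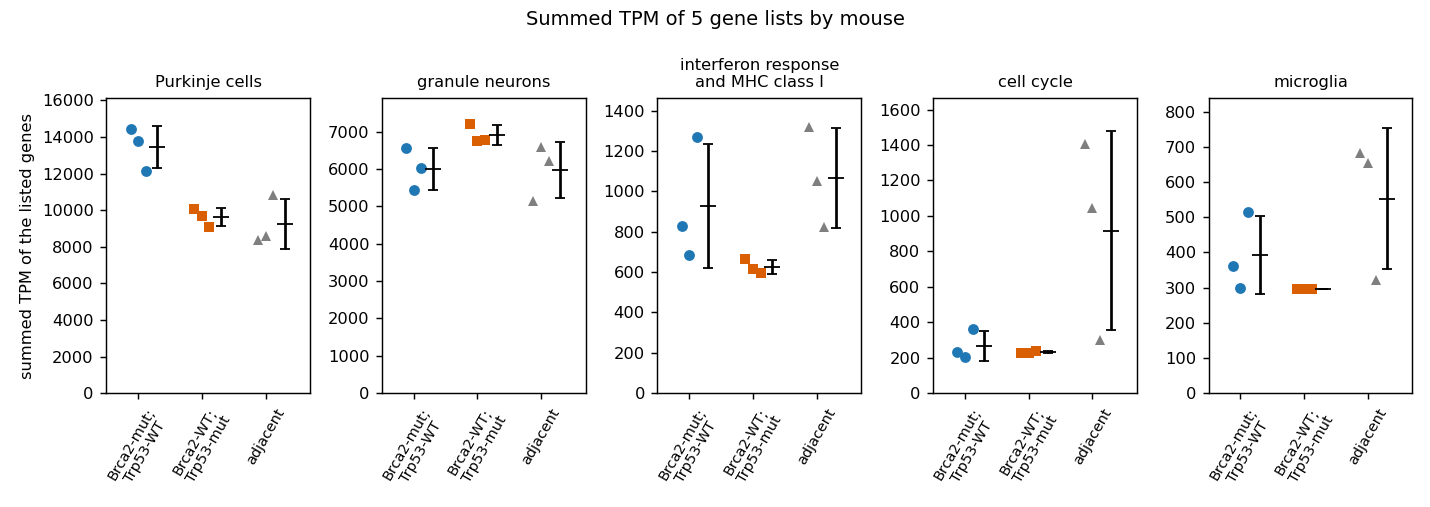
Summed TPM of 5 gene lists by mouse, each axis from 0, with the mean and SD of 3 mice as black bars. The Purkinje sums of the Brca2-mut;Trp53-WT cerebella lie above and the granule neuron sums below those of the Brca2-WT;Trp53-mut cerebella, and 1 Brca2-mut;Trp53-WT point, GB512, is high for the interferon, cell cycle and microglia lists.

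Of 31 p53 target genes listed, 27 were tested, none was called or passed at 0.05, and the median was -0.02, between -0.07 and 0.06 over the other settings. In 5 the Brca2-mut values, from mice with p53, lay above the others, 18.5% beside 6.70% of all genes. In 3 they lay below, 11.1% beside 20.3%. After median-of-ratios scaling 5 lay above, a share of 18.5% near the 13.7% of all genes, and 2 below, 7.41% beside 13.3%. The 5 above without that scaling were Cdkn1a, Phlda3, Aen, Zmat3 and the long noncoding RNA Trp53cor1. Aen, a nuclease of apoptosis, was at 27.2, 27.0 and 27.4 TPM against 21.2, 20.03 and 20.3 TPM (log2 fold change 0.39, standard error 0.07, limma adjusted p = 0.0710). Cdkn1a, the cell cycle inhibitor p21, was at 27.5, 25.5 and 30.3 TPM against 21.98, 25.1 and 16.7 TPM (log2 fold change 0.38, limma adjusted p = 0.212). Zmat3, an RNA-binding protein, was at 32.7, 26.9 and 26.8 TPM against 23.7, 23.1 and 24.6 TPM (limma adjusted p = 0.203).

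Mdm2, the ubiquitin ligase that degrades p53, overlapped between the groups, at 41.1, 31.8 and 37.9 TPM against 40.7, 38.2 and 45.3 TPM. The proapoptotic Bax was at 103, 97.2 and 114 TPM against 108, 107 and 100.4 TPM. Perp, a desmosomal membrane protein, lay below, at 6.44, 7.02 and 6.19 TPM against 10.2, 12.1 and 9.78 TPM (log2 fold change -0.63, limma adjusted p = 0.0710). The others below were Bbc3 and the death receptor gene Tnfrsf10b. With small RNA genes left out of the fit, Aen and Perp passed at 0.05 in opposite directions (limma adjusted p = 0.044 and 0.0367). The receptor gene Eda2r was under the expression filter and was not tested. It was at 1.71, 0.818 and 0.621 TPM against 0.258, 0.0359 and 0.0848 TPM, with all Brca2-mut values above. The other listed targets under the filter are not given here. With no filter on low TPM, the 31 targets had a median of -0.004, beside -0.05 over all genes, and none passed at 0.05.

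Homologous recombination and Fanconi anemia genes had a median of -0.15. Of 27 listed, 23 were tested, none passed at 0.05, and in 7 the Brca2-mut values lay below, 30.4% beside 20.3% of all genes. After median-of-ratios scaling 4 lay below, a share of 17.4% near the 13.3% of all genes, and 1 above, 4.35% beside 13.7%. The 7 were Rad51d, Xrcc3, Rad52, Fancc, Fance, Fanci and Fancm. Rad52, an annealing protein, was at 21.5, 19.4 and 25.3 TPM against 29.2, 25.5 and 27.3 TPM (log2 fold change -0.30, limma adjusted p = 0.199). Fancc, of the Fanconi core complex, was at 7.93, 10.1 and 15.8 TPM against 17.5, 17.0 and 16.6 TPM (log2 fold change -0.60, limma adjusted p = 0.185). Cell cycle genes summed to 229 and 206 TPM in GB361 and GB508, to 360.3 TPM in GB512, and to 226, 229 and 238 TPM in the Trp53-mut cerebella. Their median was 0.06, and -0.15 without GB512.

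Genes known to respond to handling, stress hormones and time of day were counted as well. Immediate early genes had a median of -0.03, and none of 13 had groups without overlap. Fos was at 147, 56.3 and 59.9 TPM against 86.9, 63.0 and 57.7 TPM. Circadian clock genes had a median of -0.09, with 4 of 15 below, a share of 26.7% near the 20.3% of all genes. Glucocorticoid-responsive genes had a median of -0.20, with 1 of 11 below. Pituitary and pineal genes, of which 3 were tested, had a median of -0.27, with Tshb at 5.37, 5.67 and 9.34 TPM against 12.6, 9.88 and 12.3 TPM (limma adjusted p = 0.127). Forebrain and midbrain genes were near the filter, and 1 of 10 was tested.

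The Trp53 and Cre lines differ in strain, and the strain of the Brca2 line is not given in the sources used here, so genes linked to each targeted gene were counted. Within 20 Mb of Trp53, 547 genes were tested and 4 passed at 0.05, or 0.731%, against 0.0385% higher and 0.417% lower over all genes. They include Trp53 itself, which is the targeted gene and not a linked one. The others were Mir6922, the kinase gene Clk4 and Ltc4s, which makes leukotrienes. Within 20 Mb of Brca2, 233 genes were tested and 2 passed, or 0.858%. These were Kl and Pcolce, a collagen-processing enhancer. No result about linked genes is drawn from such small counts. Kl starts 0.430 Mb from Brca2 and is also a choroid plexus gene. The median log2 fold changes near Trp53 and Brca2 were -0.07 and -0.06. Mir6922 was the 1 gene called near either locus.

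**Figure D5:**
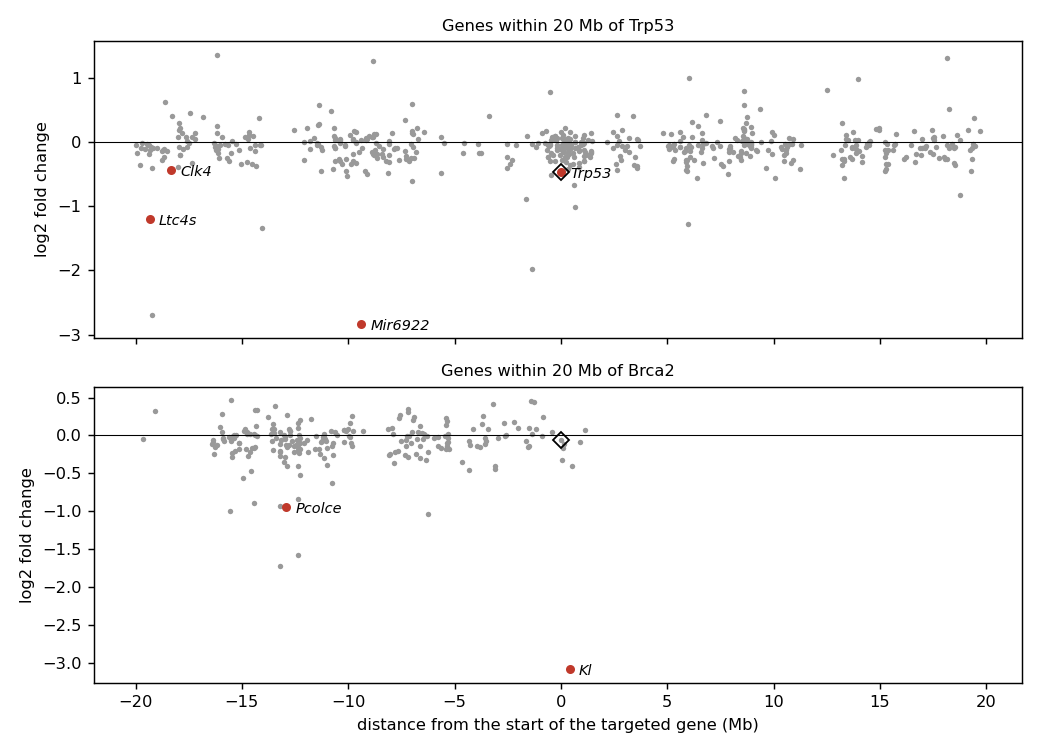
Log2 fold change of every tested gene within 20 Mb of Trp53 (top) and Brca2 (bottom) by its distance in Mb from the start of the targeted gene (open diamond). Genes that passed at an adjusted p under 0.05 are red, 4 near Trp53 and 2 near Brca2, and the other genes scatter about a line close to 0.

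The adjacent cerebella, which carry both mutations, were set beside these values with no test. They came from mice with tumors, and 1 of them, GB370, had Xist at 97.1 TPM. All 18 choroid plexus genes that passed at 0.05 were lower in all 3 adjacent cerebella than in every Trp53-mut cerebellum. The sum of the 30 choroid genes was 214, 214 and 321 TPM, or 3.69%, 3.69% and 5.55% of the Trp53-mut mean. Of the 47 other genes that were lower at 0.05, 32 were below every Trp53-mut cerebellum in all 3 adjacent cerebella. Of the 6 higher genes, 4 were above, Prm1, Th, Slc25a18 and Glipr2. These counts are of genes chosen by their difference from the same Trp53-mut cerebella, which by itself raises the counts. The share over all genes was not counted, so no result about the third genotype is drawn from them. The Purkinje sums were 8373, 8581 and 10831 TPM, near those of the Trp53-mut cerebella. The adjacent cerebella also had cell cycle sums of 1403, 1043 and 302 TPM, against 226, 229 and 238 TPM in the Trp53-mut cerebella. Granule cell progenitor sums were 1885, 1552 and 582 TPM in the adjacent and 486, 472 and 463 TPM in the Trp53-mut cerebella. TPM are shares of a library, and the part of such RNA in the Purkinje sums was not tested. In the adjacent cerebella Mir6922 was at 5.98, 14.7 and 9.74 TPM and Mir7655 at 12.2, 4.88 and 4.93 TPM. Neither locus was at 0 TPM in any adjacent cerebellum.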

How the data were processed

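RNA of cerebellum was poly(A) selected, and the authors quantified transcripts with Salmon 0.8.1 on the UCSC knownGene set of mm10 and summed them per gene. The deposited table holds TPM of 24091 genes, with 0 sample columns left unmapped. Filters before deposit are not given in the sources used here, and depth is unknown, so precision rests on the spread between 3 mice a group. The Entrez identifiers of 99.8% of the genes matched RefSeq on GRCm38.p6.

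In R 4.3.3, limma 3.58.1 was fitted to log2(TPM + 1) of the 6 samples alone, with moderated variances that follow mean expression, Benjamini-Hochberg adjustment across every gene tested and the study's thresholds. The authors' count test was not repeated, since counts were not used here. The model was tested on simulated data. Python 3.11.15 with pandas 2.3.3 made the summaries. Samples, lists and tests were chosen with earlier results of these data known. Named genes are the 2 targeted genes, all called genes, p53 target and choroid plexus genes, called or most abundant members of the other lists, and the genes most raised in a library that stands apart. Other genes, including list members given to illustrate groups without overlap, were named after their values were seen. Alternatives changed the pseudocount, filter, scaling, variance model, samples and thresholds.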

Additional observations from a re-analysis of the deposited data

How the results depend on the processing

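Prm1 and Gm1821 were called higher under all 18 alternatives that gave a fit. With GB519 left out 5 genes were called higher, with GB520 left out 3, and otherwise 2. The 7 lower calls were unstable: 0 with a pseudocount of 0.01, 1 with no filter, with a minimum of 5 TPM, with quantile normalization or with eBayes without a trend, 2 with median-of-ratios scaling or TPM rescaled without Mir6236, 19 with all 12 samples in the fit, 25 with Xist as a covariate and 32 with small RNA genes left out, which was added after seeing the data. Xist was at most 0.185 TPM in the 6 libraries, with that value in GB361, so this covariate could not adjust for sex. Leaving out a mouse gave 27 without GB361, 3 without GB508, 4 without GB512 and 2 without each Trp53-mut mouse, a range of 2 to 27. At an adjusted p under 0.05 with no fold minimum there were 6 higher and 65 lower.

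The 1 gene called near Trp53 or Brca2, Mir6922, was the count under 10 Mb windows too. It became 0 with a pseudocount of 0.01, with no filter or 5 TPM, with either scaling, without Mir6236, without a trend and when GB508, GB512, GB519 or GB520 was left out, and 2 with all 12 samples, with Xist as a covariate, without GB361 or with small RNA genes left out, and 6 at 0.05. Removing mice gave 0 to 2. No called gene changed sign. The cause of these changes was not tested. The choroid plexus median stayed between -2.92 and -1.99, the Purkinje median between 0.35 and 0.51 and the granule neuron median between -0.30 and -0.14. The interferon median ran from 0.27 to 1.01. No paired analysis was possible because the groups hold different mice.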
